A study of Mus musculus with 6 samples.

Results

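The metalloproteinases and their inhibitors were taken as all genes whose symbol is Mmp, Adam, Adamts, Adamtsl or Timp followed by a number and, in some, a letter. This gave 84 genes of 24982 listed, with 23 *Mmp*, 33 *Adam*, 19 *Adamts*, 5 *Adamtsl* and 4 *Timp* genes. Their RNA was compared between a pair of C57BL/6 mouse keratinocyte lines, both untreated, that go back to neonatal skin. The KSFM-Ca2+ cells (3 libraries) were derived and kept in a low-calcium serum-free medium, and the DKSFM cells (3 libraries) are descendants of KSFM-Ca2+ cells that were moved into a defined serum-free medium with more calcium. Most cells died after that move and the culture regrew from the few that survived, and the KSFM-Ca2+ cells themselves arose from few clusters, so medium, adaptation and selection of survivors cannot be told apart in this design. The question of the comparison was how gene expression differs between these cell lines. The source of the replicates is not given in the sources used here, so that the p-values measure only the spread between these libraries, which may be technical. The names of the files of KSFM-Ca2+ replicate 3 and of all DKSFM replicates contain the word combined, which is not explained in the sources used here. The level of a gene is its mean read coverage per base, which makes genes of different length comparable, scaled to equal library size (normalized coverage). Total coverage was 1601676, 1238411 and 1057750 in KSFM-Ca2+ replicates 1 to 3 and 1174348, 1239438 and 1170675 in DKSFM replicates 1 to 3. Since RNA was taken from whole cultures, fewer cells of a type and less RNA per cell cannot be told apart.

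Metalloproteinases are zinc enzymes made as inactive precursors. Secreted and membrane-bound matrix metalloproteinases (MMPs) cleave collagens, laminins and other matrix proteins, most ADAM proteins sit in the cell membrane and release growth factors, cytokines and receptors from it, and ADAMTS enzymes are secreted and cut proteoglycans and procollagens, while their ADAMTS-like relatives have no protease domain. Tissue inhibitors of metalloproteinases (TIMPs) block the active site, and in skin this balance is best known from wound closure, where keratinocytes at the wound edge switch on several MMPs.

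The label of the cells was checked against marker lists. All 8 keratinocyte markers were above 0 in all 6 libraries, and their summed normalized coverage was 19246, 19599 and 19332 in the KSFM-Ca2+ libraries and 48520, 44816 and 48951 in the DKSFM libraries, with *Krt14* as the most abundant gene. Of 26 markers of fibroblasts, endothelium, immune cells, melanocytes and Schwann cells, 12 were listed at 0 in every library. The fibroblast list had 7 of 8 genes at 0, the collagen genes *Col1a1*, *Col1a2* and *Col3a1* among them, and its sum of 1.14, 0.890 and 1.30 in the KSFM-Ca2+ and 2.34, 2.10 and 2.23 in the DKSFM libraries was all *Pdgfra*. The 4 endothelial markers summed to 2.82, 3.16 and 3.30 in the KSFM-Ca2+ and 8.28, 8.29 and 7.42 in the DKSFM libraries, mostly *Pecam1*, and *Cdh5* was at 0. The 6 immune markers summed to 10.8, 11.2 and 12.5 in KSFM-Ca2+ and 13.7, 18.9 and 20.7 in DKSFM libraries, led by *Cd68*, with *Cd3e* and *Adgre1* at 0. The 5 melanocyte markers came to 3.96, 3.96 and 4.601 in KSFM-Ca2+ and 17.3, 18.6 and 18.3 in DKSFM libraries, with *Mitf* as the most abundant gene and *Dct* and *Tyr* at 0. Of the Schwann cell markers, *Sox10* was listed at 0.1 at most. Each of the sums given was higher in all DKSFM than in all KSFM-Ca2+ libraries, mainly through 1 gene each (*Pdgfra*, *Pecam1*, *Cd68* and *Mitf*) for the other cell types. The sum of the Schwann cell markers, which is not given here, overlapped between the lines. The part of all these markers in the results on the metalloproteinases was not tested.

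DKSFM cells had more RNA of several secreted proteinases, among them *Mmp12*, *Mmp10*, *Mmp2* and *Adamts16* (log2 fold changes 6.63, 2.82, 2.60 and 5.47, with SE 0.30, 0.15, 0.12 and 0.11, n = 3 in each line). They also had more of *Adam15*, *Adamts1* and both tested ADAMTS-like genes, and less of *Mmp1b*, *Adam8*, *Adam12* and *Adamts7*. Of the 84 genes, 30 were listed at 0 in all libraries and 23 others were above 0 but did not reach a normalized coverage of 0.5 in at least 3 libraries. The remaining 31 were tested among 12409 genes. A gene was called when its adjusted p was below 0.01 and its change at least 2-fold. By this rule 14 members were higher in the DKSFM cells, where 13.2% of all tested genes were, and 5 were lower, where 10.5% of all tested genes were. An adjusted p below 0.01 at any size was reached by 26 members (72.6% of all tested genes), and the libraries of the lines did not overlap for 29 members (83.3% of all tested genes). Genes high in 1 line only could enter the test through that line, so these counts are a description: 6 members (*Mmp17*, *Mmp27*, *Adamts2*, *Adamts15*, *Adamts16* and *Timp3*) reached 0.5 only in DKSFM libraries and 2 (*Mmp1b* and *Mmp24*) only in KSFM-Ca2+ libraries. Among the 22 members at 0.5 or more in every library, 8 were called higher and 3 lower, beside 1032 and 955 of 11112 genes of that kind. The median log2 fold change of the 29 tested members above 0 in both lines was 0.65, and that of the 12200 such genes in all was -0.01.

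**Figure D1:**
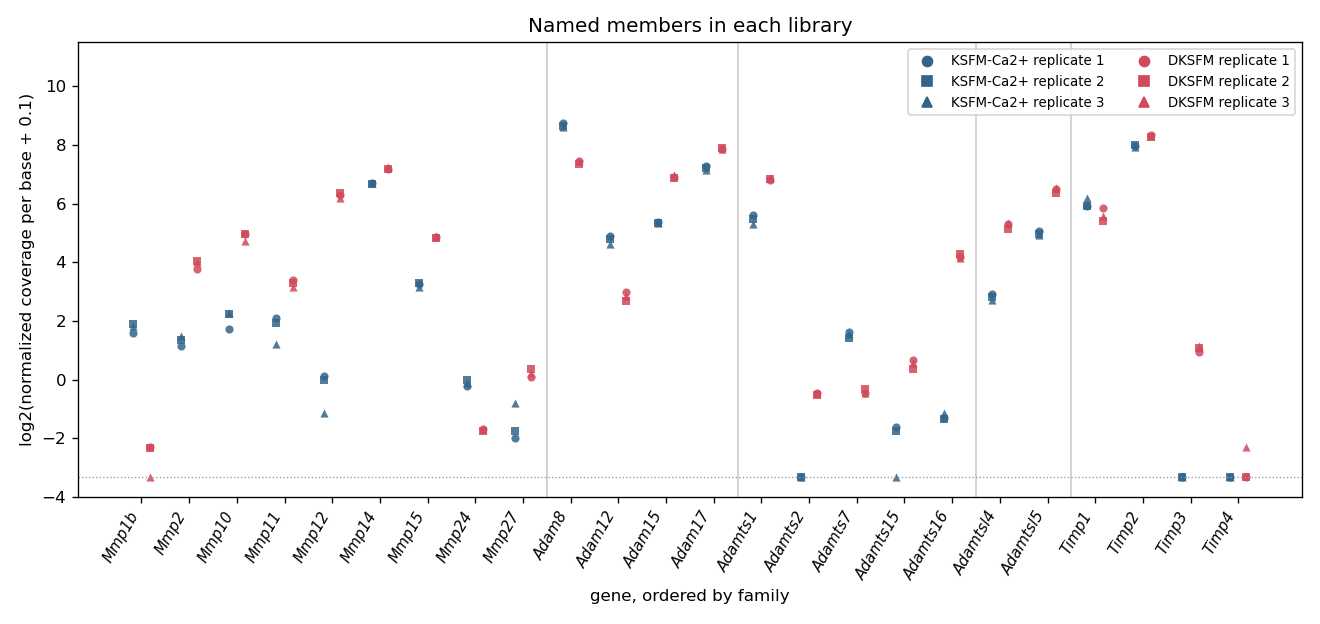
Normalized coverage per base of 24 members, on the log2(normalized coverage + 0.1) scale. Blue symbols are the KSFM-Ca2+ libraries, red symbols the DKSFM libraries, the shape gives the replicate, and the dotted line marks a value of 0; Mmp12 lies between 0.354 and 0.991 in the blue and between 72.6 and 83.1 in the red libraries.

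Collagenases open the triple helix of fibrillar collagens. Of the genes classed here with them, the lines differed most in *Mmp1b* (chr9:7368239-7388047, minus strand), a murine relative of interstitial collagenase. Whether the product of *Mmp1b* itself has this activity was not examined. The normalized coverage of *Mmp1b* was 2.90, 3.66 and 3.42 in KSFM-Ca2+ replicates 1 to 3 and 0.106, 0.0999 and 0 in DKSFM replicates 1 to 3. The KSFM-Ca2+ libraries were all high and the DKSFM libraries at or under the rounding step of the files, with log2 fold change -4.41, SE 0.31, adjusted p = 3.15e-06, a size that depends on the pseudocount (-2.01 with 1 in place of 0.1). *Mmp13* (chr9:7272514-7283331), collagenase of wounded and remodelled tissue, was the most abundant secreted MMP of the KSFM-Ca2+ cells, at 22.1, 25.1 and 19.6 there and 17.3, 19.1 and 15.5 in the DKSFM cells. Its libraries did not overlap, but the difference did not pass the threshold (log2 fold change -0.36, SE 0.11, adjusted p = 0.0126), an outcome that turned on the setting (adjusted p between 6.56e-04 and 0.049 over 15 other settings, below 0.01 in 5 of them, and 0.302 with the libraries marked as combined only), while the change stayed under 2-fold. The setting with the libraries marked as combined only is given apart from the others, since it leaves 1 KSFM-Ca2+ library against 3 DKSFM libraries and its fit assumes that the lone library varies as the DKSFM libraries do. *Mmp1a* was at 0 in the DKSFM libraries and listed at 0.1, 0.2 and 0.2 in KSFM-Ca2+ replicates 1 to 3, and neither it nor the neutrophil collagenase gene *Mmp8* was tested, which was at 0 in the KSFM-Ca2+ libraries and listed at 0.2, 0.1 and 0.2 in DKSFM replicates 1 to 3.

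The gelatinase gene *Mmp2* (chr8:92827291-92853420), whose enzyme cleaves denatured collagen and basement membrane collagen, had a normalized coverage of 2.13, 2.47 and 2.71 in the KSFM-Ca2+ libraries and 13.5, 16.5 and 16.0 in the DKSFM libraries. All DKSFM libraries were far above the KSFM-Ca2+ libraries (log2 fold change 2.60, SE 0.12, adjusted p = 2.20e-07). The other gelatinase gene, *Mmp9*, was at 0 in the DKSFM libraries and listed at 0.1, 0.2 and 0.1 in KSFM-Ca2+ replicates 1 to 3.

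Of the stromelysins, which cleave many matrix proteins and activate other MMP precursors, *Mmp10* (chr9:7502352-7510240) had 3.20, 4.65 and 4.72 in the KSFM-Ca2+ and 31.3, 31.5 and 26.5 in the DKSFM libraries as normalized coverage. The lines were well separated, with KSFM-Ca2+ replicate 1 lowest (log2 fold change 2.82, SE 0.15, adjusted p = 6.02e-07). *Mmp3* (chr9:7445822-7455975), a stromelysin gene of the same chromosome, had 5.94, 7.32 and 7.32 in the KSFM-Ca2+ and 7.64, 6.40 and 7.63 in the DKSFM libraries. These values overlapped and the difference did not pass the threshold (log2 fold change 0.08, SE 0.11, adjusted p = 0.551). The stretches of 85 bases, the read length, that transcripts of *Mmp3* and *Mmp10* have in common were 2.04% of those of *Mmp3* and 2.14% of those of *Mmp10*. *Mmp11* (chr10:75923222-75936496, minus strand), a stromelysin that is active when secreted, had 4.19, 3.76 and 2.24 in the KSFM-Ca2+ and 10.4, 9.69 and 8.80 in the DKSFM libraries. The KSFM-Ca2+ libraries varied, replicate 3 being the lowest, yet all lay under the DKSFM libraries (log2 fold change 1.52, SE 0.21, adjusted p = 2.05e-04), and the call was lost when the change was tested against 2-fold itself (adjusted p = 0.109).

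*Mmp12* (chr9:7344381-7369499), the elastase best known from macrophages, showed the largest log2 fold change of the tested members above 0 in both lines. Its normalized coverage was 0.991, 0.890 and 0.354 in KSFM-Ca2+ replicates 1 to 3 and 78.3, 83.1 and 72.6 in DKSFM replicates 1 to 3. It was below 1 in all KSFM-Ca2+ libraries, lowest in replicate 3, and in all DKSFM libraries it was the most abundant secreted MMP (log2 fold change 6.63, SE 0.30, adjusted p = 2.23e-07). With a pseudocount of 1 the log2 fold change was 5.52, and with the libraries marked as combined only it was 7.40. This level lay above 7.16% of the tested genes in the KSFM-Ca2+ cells and above 76.1% in the DKSFM cells. Of the immune markers, *Adgre1*, which defines mouse macrophages, was at 0 in all libraries and *Ptprc* and *Itgam* were listed at 0.1 at most, while *Cd68*, a lysosomal protein abundant in macrophages, had 11.47 ± 0.908 in the KSFM-Ca2+ and 17.6 ± 3.61 in the DKSFM libraries (SD, n = 3). The matrilysin gene *Mmp7* was above 0 in DKSFM replicates 1 to 3 only, where it was listed at 0.3, 0.3 and 0.2.

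These genes are neighbours. In the annotation of mm10, 10 *Mmp* genes and no other protein-coding gene lie within 427 kb of chromosome 9 (chr9:7272514-7699585), in the order *Mmp13*, *Mmp12*, *Mmp1b*, *Mmp3*, *Mmp1a*, *Mmp10*, *Mmp8*, *Mmp27*, *Mmp20* and *Mmp7*. Going along the chromosome, *Mmp13* and *Mmp3* were not called, *Mmp12* and *Mmp10* rose and *Mmp1b*, which lies between them, fell. *Mmp12* and *Mmp1b* lie on opposite strands and share 157 bases of annotated exon, 10.8% of those of *Mmp1b*, and in the DKSFM cells the mean of *Mmp1b* was 0.0687 beside 78.0 for *Mmp12*. The authors aligned the reads, which were nearly all stranded, with a setting for the strand, but the sources used here do not say whether the coverage files were computed by strand. The 5 nearest tested genes on either side of the cluster were *Casp1*, *Casp4*, *Casp12*, *Dync2h1* and *Dcun1d5* before it, and *Tmem123*, *Birc2*, *Yap1*, *Cfap300* and *Cep126* after it, and apart from *Casp1* (log2 fold change 5.10) and *Casp4* (-1.998) their log2 fold changes lay between -0.58 and 0.48. *Mmp27* (chr9:7571396-7581885), a little studied MMP further along, had 0.152, 0.198 and 0.472 in the KSFM-Ca2+ and 0.955, 1.20 and 1.06 in the DKSFM libraries. Its DKSFM libraries were all higher at very low coverage (log2 fold change 1.74, SE 0.33, adjusted p = 0.00128), and the call was lost with a pseudocount of 1 (log2 fold change 0.71), against 2-fold (adjusted p = 0.149) and with the libraries marked as combined only, where 1 KSFM-Ca2+ library remains (adjusted p = 0.0138). *Mmp20*, which encodes the enamel proteinase, was at 0 in all libraries.

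**Figure D2:**
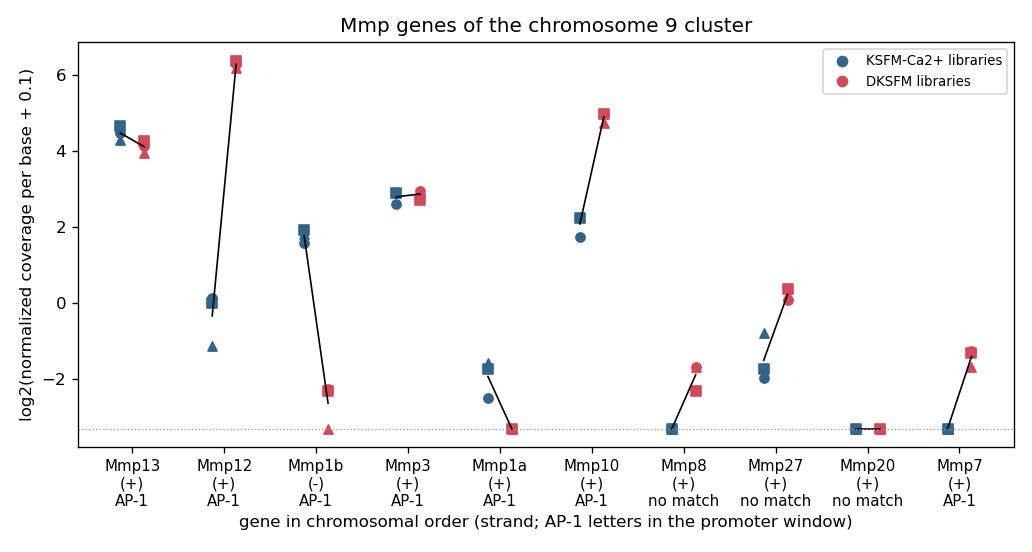
Normalized coverage of the 10 Mmp genes of the chromosome 9 cluster in chromosomal order, as log2(normalized coverage + 0.1). Blue points are KSFM-Ca2+ libraries, red points DKSFM libraries, lines join the means of the lines, the dotted line marks 0, and the labels give the strand and whether the promoter window holds the AP-1 letters; genes with these letters rose (Mmp12, Mmp10), fell (Mmp1b) or were not called (Mmp13, Mmp3).

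The cluster genes share promoter letters that AP-1, the Fos and Jun family of transcription factors, is known to bind. The letters TGACTCA or TGAGTCA (reverse complements of each other, so both strands are covered) were searched in the RefSeq promoters of build GRCm38.p6, from 250 bases before to 50 bases after each start listed there. Of the 84 members, 53 had an entry. The letters were found in 5.2% of all 32851 promoters, in promoters of 7 of the 10 cluster genes (*Mmp13*, *Mmp12*, *Mmp1b*, *Mmp3*, *Mmp1a*, *Mmp10* and *Mmp7*) and of 3 of the other 43 members with one (*Adam1b*, *Adam19* and *Adam29*). The same 7 promoters also hold the TATA letters TATAAA on one strand or the other, and promoters with both kinds of letters made up 0.941% of all. The stretches from 100 bases before to 20 bases after the start are given here, in the direction of transcription, for the 5 tested cluster genes with a match, to show where the letters lie. Capitals mark the AP-1 letters and, after them, TATAAA, which begins before the start in 4 of the stretches and 4 bases after it in that of *Mmp12*. In order they are chr9:7272414-7272533 (plus strand), chr9:7347274-7347393 (plus strand), chr9:7388007-7388126 (minus strand), chr9:7445722-7445841 (plus strand) and chr9:7502242-7502361 (plus strand). The start used for *Mmp12* lies inside the gene span given above (chr9:7344381-7369499), so it is not the first base of that span.
Mmp13: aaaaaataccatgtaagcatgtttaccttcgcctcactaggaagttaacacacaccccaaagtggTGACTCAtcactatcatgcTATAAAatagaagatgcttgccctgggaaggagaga
Mmp12: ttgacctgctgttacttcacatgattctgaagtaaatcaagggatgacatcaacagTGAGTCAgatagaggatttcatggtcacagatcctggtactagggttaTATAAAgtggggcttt
Mmp1b: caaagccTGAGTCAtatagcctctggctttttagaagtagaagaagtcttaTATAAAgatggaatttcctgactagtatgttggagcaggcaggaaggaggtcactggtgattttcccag
Mmp3: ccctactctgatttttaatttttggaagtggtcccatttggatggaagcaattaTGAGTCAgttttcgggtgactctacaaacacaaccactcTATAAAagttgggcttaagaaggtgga
Mmp10: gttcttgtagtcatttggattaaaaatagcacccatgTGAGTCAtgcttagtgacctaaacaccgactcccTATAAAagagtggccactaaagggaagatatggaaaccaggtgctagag
The AP-1 letters began 35, 44, 93, 46 and 63 bases before the start, in the same order. Among these 5 genes they precede the pair that rose, the one that fell and the pair that was not called alike. *Mmp27*, the other tested cluster gene, was also called higher (log2 fold change 1.74), and its promoter does not hold the AP-1 letters. A match of letters is a description of the sequence. Whether AP-1 was bound there was not measured, and its part in the changes of these genes was not tested.

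Membrane-bound MMPs cut matrix at the cell surface, and the product of *Mmp14* (chr14:54431612-54445364) activates the precursor of the gelatinase made from *Mmp2*. *Mmp14* was the most abundant *Mmp* gene in both lines, with a normalized coverage of 104, 103 and 103 in the KSFM-Ca2+ libraries and 146, 145 and 154 in the DKSFM libraries. The replicates were tight and all DKSFM libraries higher, by less than 2-fold (log2 fold change 0.52, SE 0.032, adjusted p = 1.36e-06). *Mmp15* (chr8:95352268-95375080), a close relative, had 9.45, 9.69 and 8.85 in the KSFM-Ca2+ and 28.8, 28.7 and 30.1 in the DKSFM libraries. It rose in all DKSFM libraries (log2 fold change 1.64, SE 0.055, adjusted p = 5.04e-08), while the 83 other tested genes within 10 Mb of it had a median log2 fold change of -0.58 and the 113 around *Mmp2* on the same chromosome one of -0.51. *Mmp24* (chr2:155775342-155818366), known mainly from neurons, had 0.762, 0.890 and 0.826 in the KSFM-Ca2+ and 0.212, 0.200 and 0.212 in the DKSFM libraries. It was lower in all DKSFM libraries (log2 fold change -1.59, SE 0.21, adjusted p = 1.70e-04), at a coverage so low that the call was lost with pseudocounts of 0.5 and 1 (log2 fold changes -0.90 and -0.60) and against 2-fold (adjusted p = 0.0731). Its exons share 637 bases (13.6%) with those of *BC029722* on the other strand, which had 103 in the KSFM-Ca2+ and 115 in the DKSFM cells, far above *Mmp24* itself. *Mmp17*, anchored by a lipid, was listed between 0.3 and 0.6 in all libraries (adjusted p = 0.0826), *Mmp25* at 0.2 at most, and *Mmp16* at 0. Of the remaining *Mmp* genes, the epilysin gene *Mmp28*, first described in skin and testis, had means of 11.2 ± 1.11 and 14.7 ± 1.25 (SD, n = 3), and its difference passed the threshold or not by setting (log2 fold change 0.39, SE 0.093, adjusted p = 0.00456; adjusted p between 0.00258 and 0.0209 over 15 other settings, below 0.01 in 8 of them, and 0.0661 with the libraries marked as combined only). *Mmp19* had overlapping libraries (0.816 ± 0.277 and 0.864 ± 0.129; adjusted p = 0.704), *Mmp23* was listed at 0.5 at most and *Mmp21* at 0.

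**Figure D3:**
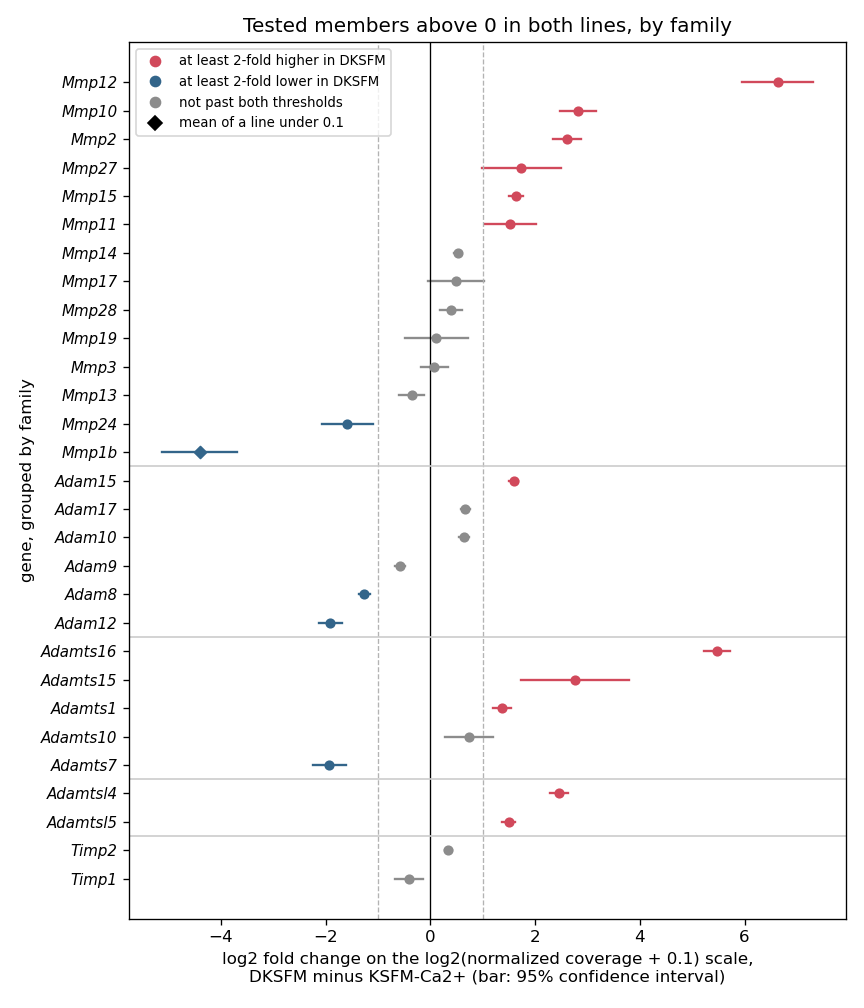
Log2 fold change, DKSFM minus KSFM-Ca2+, of the 29 tested members above 0 in both lines, grouped by family, with 95% confidence intervals from the limma fit. Red marks members called higher, blue members called lower, grey the rest, and dashed lines a 2-fold change; values run from -4.41 for Mmp1b to 6.63 for Mmp12.

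The ADAM family was carried by 6 tested genes, and 1 of them was called higher (16.7%, near the 13.2% of all tested genes) and 2 lower (33.3%, where 10.5% of all were). *Adam8* (chr7:139978932-139992562, minus strand), a sheddase of adhesion molecules that is prominent in leukocytes, had the highest normalized coverage of all members in the KSFM-Ca2+ cells, 434, 406 and 392, and 176, 163 and 174 in the DKSFM cells. All DKSFM libraries were lower (log2 fold change -1.26, SE 0.046, adjusted p = 7.10e-08). In the KSFM-Ca2+ cells this level lay above 95.9% of tested genes. *Adam12* (chr7:133883199-134232146, minus strand), which can release the epidermal growth factor relative HB-EGF, had 29.5, 27.7 and 24.4 in the KSFM-Ca2+ and 7.86, 6.40 and 7.21 in the DKSFM libraries. It fell in all DKSFM libraries (log2 fold change -1.91, SE 0.096, adjusted p = 4.33e-07), on the same chromosome as *Adam8*, where the other tested genes within 10 Mb had a median log2 fold change of -0.36 around *Adam12* and -0.31 around *Adam8*. *Adam15* (chr3:89338542-89349996, minus strand), a proteinase with an integrin-binding disintegrin domain, had 41.8, 40.0 and 40.4 in the KSFM-Ca2+ and 122, 119 and 127 in the DKSFM libraries. The replicates were close and the lines far apart (log2 fold change 1.59, SE 0.037, adjusted p = 8.57e-09). The 231 other tested genes within 10 Mb of it had a median log2 fold change of 0.47, and its exons share 1263 bases with those of a gene on the other strand that the files do not list.

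*Adam17* (chr12:21323509-21373632, minus strand) encodes the main sheddase of tumour necrosis factor and of several growth factors that bind the epidermal growth factor receptor. Its normalized coverage was 156, 149 and 142 in the KSFM-Ca2+ libraries and 234, 240.1 and 234 in the DKSFM libraries, where it was the most abundant *Adam* gene. All DKSFM libraries were higher, by less than 2-fold (log2 fold change 0.66, SE 0.038, adjusted p = 9.03e-07). *Adam10*, the sheddase that starts Notch signalling, had 54.0 ± 2.32 and 84.6 ± 1.31 (SD, n = 3), a change of less than 2-fold as well (log2 fold change 0.65, adjusted p = 1.39e-06). *Adam9* went the other way without reaching 2-fold, from 179 ± 4.83 to 120.3 ± 5.65 (log2 fold change -0.58, adjusted p = 3.30e-06). The other 27 *Adam* genes were not tested. Of these, 9 were above 0 in some library (*Adam1a*, *Adam4*, *Adam11*, *Adam19*, *Adam21*, *Adam22*, *Adam28*, *Adam32* and *Adam33*), none listed above 0.5, and 18 were at 0 in all libraries, most of them known from the testis (*Adam1b*, *Adam2*, *Adam3*, *Adam5*, *Adam6a*, *Adam6b*, *Adam7*, *Adam18*, *Adam20*, *Adam23*, *Adam24*, *Adam25*, *Adam26a*, *Adam26b*, *Adam29*, *Adam30*, *Adam34* and *Adam39*). *Adam28* was above 0 in DKSFM replicates 1 to 3 only, where it was listed at 0.5, 0.2 and 0.2, and *Adam22* was listed at 0.5, 0.3 and 0.4 in the KSFM-Ca2+ and 0, 0.1 and 0 in the DKSFM libraries.

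Most *Adamts* RNA was that of *Adamts1* (chr16:85793827-85803113, minus strand), a proteoglycanase that cleaves versican and aggrecan. It had a normalized coverage of 49.5, 44.4 and 39.5 in the KSFM-Ca2+ libraries and 111, 116 and 117 in the DKSFM libraries. The DKSFM libraries were all higher (log2 fold change 1.37, SE 0.074, adjusted p = 6.76e-07). *Adamts15* (chr9:30899155-30922452, minus strand), another proteoglycanase, had 0.229, 0.198 and 0 in the KSFM-Ca2+ and 1.49, 1.20 and 1.38 in the DKSFM libraries. It was higher in all DKSFM libraries at low coverage (log2 fold change 2.76, SE 0.45, adjusted p = 5.32e-04), with a log2 fold change of 1.05 at a pseudocount of 1 and 3.76 with the libraries marked as combined only (1 KSFM-Ca2+ library), and the call was lost against 2-fold (adjusted p = 0.0148). The procollagen N-proteinase gene *Adamts2* (chr11:50602084-50807573) was listed at 0 in all KSFM-Ca2+ libraries and had 0.637, 0.600 and 0.636 in the DKSFM libraries. It was called higher (adjusted p = 3.14e-05), but not with a pseudocount of 1, and it was not tested with quantile normalization. *Adamts16* (chr13:70727802-70841811, minus strand), known to cleave fibronectin, had 0.305, 0.297 and 0.354 in the KSFM-Ca2+ and 18.2, 19.6 and 17.6 in the DKSFM libraries. It was below 0.5 in all KSFM-Ca2+ libraries and in the DKSFM cells at a level above 42.3% of tested genes (log2 fold change 5.47, SE 0.11, adjusted p = 3.86e-09; log2 fold change 3.88 with a pseudocount of 1).

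*Adamts7* (chr9:90163069-90208071), which encodes an enzyme that degrades cartilage oligomeric matrix protein, was the 1 *Adamts* gene called lower. Its normalized coverage was 2.97, 2.57 and 2.83 in the KSFM-Ca2+ libraries and 0.637, 0.699 and 0.636 in the DKSFM libraries. All DKSFM libraries were lower (log2 fold change -1.93, SE 0.14, adjusted p = 3.47e-06), with a log2 fold change of -1.19 at a pseudocount of 1. *Adamts10*, whose product acts on fibrillin microfibrils, had 1.65 ± 0.353 and 2.81 ± 0.598 (SD, n = 3), and its difference also passed or not by setting (log2 fold change 0.73, SE 0.20, adjusted p = 0.0082; adjusted p between 0.002 and 0.0329 over 15 other settings, below 0.01 in 7 of them, and 0.044 with the libraries marked as combined only). Of the other 13 *Adamts* genes, 7 were above 0 in some library but listed at 0.3 at most (*Adamts4*, *Adamts5*, *Adamts6*, *Adamts8*, *Adamts9*, *Adamts13* and *Adamts17*) and 6 were at 0 (*Adamts3*, *Adamts12*, *Adamts14*, *Adamts18*, *Adamts19* and *Adamts20*). The proteoglycanase genes *Adamts8* and *Adamts9* were at 0 in the KSFM-Ca2+ libraries, while each DKSFM library listed *Adamts8* at 0.3 and *Adamts9* at 0.2.

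The ADAMTS-like proteins bind fibrillin microfibrils, the scaffold on which elastic fibres form. *Adamtsl4* (chr3:95676201-95687917, minus strand) had a normalized coverage of 7.47, 6.92 and 6.49 in the KSFM-Ca2+ libraries and 39.9, 35.3 and 40.8 in the DKSFM libraries. Both sets of replicates were narrow and far apart (log2 fold change 2.46, SE 0.077, adjusted p = 3.55e-08). The 245 other tested genes within 10 Mb had a median log2 fold change of 0.50. *Adamtsl5* (chr10:80339110-80348412, minus strand) was the more abundant of the pair, with 33.4, 31.1 and 30.2 in the KSFM-Ca2+ and 91.6, 82.6 and 92.7 in the DKSFM libraries. It rose in all DKSFM libraries as well (log2 fold change 1.49, SE 0.057, adjusted p = 9.76e-08), and *Adamtsl1*, *Adamtsl2* and *Adamtsl3* were listed at 0 in all libraries.

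Of the 3 tested inhibitor genes, *Timp3* was the 1 called higher (33.3%, where 13.2% of all tested genes were). None was called lower, where 10.5% of all were. *Timp3* reached 0.5 only in DKSFM libraries, and no inhibitor gene was called with 0.5 required in every library. *Timp2* (chr11:118301069-118355740, minus strand), which blocks MMPs and also takes part in the activation of the *Mmp2* product, was the most abundant inhibitor, with a normalized coverage of 249, 256 and 247 in the KSFM-Ca2+ libraries and 321, 311 and 320.4 in the DKSFM libraries. All DKSFM libraries were higher, by a small amount (log2 fold change 0.34, SE 0.028, adjusted p = 8.48e-06). *Timp1* (chrX:20870166-20874735), an inhibitor induced by inflammation and injury, had 60.7, 60.8 and 73.4 in the KSFM-Ca2+ and 57.6, 42.4 and 47.3 in the DKSFM libraries. KSFM-Ca2+ replicate 3 was the highest and DKSFM replicate 1 the nearest to the other line, and the difference did not pass the threshold (log2 fold change -0.41, SE 0.12, adjusted p = 0.0116). This too turned on the setting (adjusted p between 0.00216 and 0.0494 over 15 other settings, below 0.01 in 6 of them, and 0.0625 with the libraries marked as combined only). *Timp3* (chr10:86300372-86349506), the inhibitor that binds to the matrix and also blocks ADAM17 and several ADAMTS enzymes, was listed at 0 in all KSFM-Ca2+ libraries and had 1.80, 1.998 and 2.12 in the DKSFM libraries. It was called higher (adjusted p = 5.70e-07) at a coverage above 12.4% of tested genes, and no fold is given against 0. Its exons share 21.3% of their bases with those of *Syn3* on the other strand, which had 0.181 in the KSFM-Ca2+ and 1.28 in the DKSFM cells. *Timp4* was listed at 0 in 5 libraries and at 0.1 in DKSFM replicate 3.

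Summed over all genes of a family, normalized coverage shows how much of each kind of RNA the cells held. The 23 *Mmp* genes summed to 167, 176 and 167 in the KSFM-Ca2+ libraries and 352, 357 and 349.6 in the DKSFM libraries, a ratio of 2.08 between the means. *Mmp14* made up 60.8% of the sum in the KSFM-Ca2+ and 42.0% in the DKSFM cells. The sum of the 16 secreted *Mmp* genes, other than *Mmp23*, whose product is held in the membrane until it is cut, went from 55.8 ± 5.14 to 174 ± 8.98 (SD, n = 3), with *Mmp12* at 1.33% and 44.7% of it. Without *Mmp12* the secreted sum was still higher in all DKSFM libraries, at 51.3, 60.8 and 53.1 in the KSFM-Ca2+ and 98.1, 99.1 and 92.0 in the DKSFM libraries. The membrane-bound sum of 6 genes went from 114 ± 0.570 to 178 ± 5.44.

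The *Adam* sum was the largest of the families in both lines and, alone among them, lower in the DKSFM cells, under each scaling tried, with 903, 849 and 834 in the KSFM-Ca2+ and 739, 741 and 748 in the DKSFM libraries. *Adam8* held 47.6% of this sum in the KSFM-Ca2+ cells and 23.0% in the DKSFM cells. Its mean fell from 411 to 171, by more than the mean *Adam* sum, which went from 862 to 743. The summed RNA of the other *Adam* genes was therefore higher in the DKSFM cells, so the lower family sum depended on *Adam8*. Of these other genes, *Adam10*, *Adam15* and *Adam17* were higher and *Adam9* and *Adam12* lower. The sum without *Adam8* was not computed for each library. The *Adamts* sum was 55.4, 49.3 and 44.4 in the KSFM-Ca2+ and 136, 141 and 140.4 in the DKSFM libraries, most of it *Adamts1* (89.5% and 82.2%). For the *Adamtsl* genes the sum was 40.9, 38.1 and 36.7 in the KSFM-Ca2+ and 132, 118 and 133 in the DKSFM libraries. The inhibitors summed to 310.0, 317 and 320.1 in the KSFM-Ca2+ and 381, 355 and 369.9 in the DKSFM libraries, with *Timp2* at 79.4% and 86.1%. No sum overlapped between the lines. The *Mmp* sum divided by the *Timp* sum was 0.538, 0.554 and 0.522 in the KSFM-Ca2+ libraries and 0.925, 1.01 and 0.945 in the DKSFM libraries, so that *Mmp* RNA came close to *Timp* RNA in the DKSFM cells. Part of this is *Mmp12*, with 78.0 of the mean *Mmp* sum of 353 in the DKSFM cells and 0.745 of 170 in the KSFM-Ca2+ cells. The ratio without *Mmp12* was not computed. With 3 libraries in each group the exact permutation test of a single such value cannot go below p = 0.10, and RNA says nothing of precursor activation or of inhibitor bound to enzyme.

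**Figure D4:**
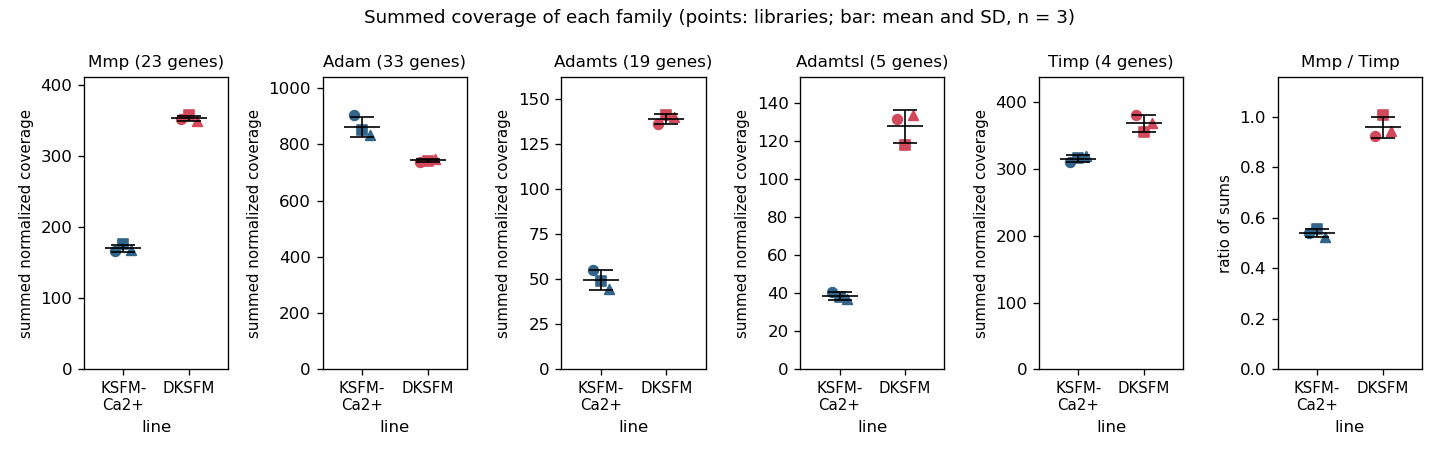
Summed normalized coverage of each family and the Mmp to Timp ratio, by line; points are libraries (blue KSFM-Ca2+, red DKSFM, shape for the replicate), and the black bars give the mean and the SD of 3 libraries, on axes that start at 0. The Mmp, Adamts, Adamtsl and Timp sums lie higher and the Adam sum lower in the DKSFM libraries, and the ratio goes from 0.522 to 0.554 in the blue to 0.925 to 1.01 in the red libraries.

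Genes that act on the proteinases were followed in a list of 29 activators, chaperones and inhibitors, of which 20 were tested. Of these, 5 were called higher (25.0%, where 13.2% of all tested genes were) and 5 lower (25.0%, where 10.5% of all were). The higher count was 1 with 0.5 required in every library, beside 1032 of 11112 genes in all. It was 3 with a pseudocount of 0.5, with a pseudocount of 1 and against 2-fold, beside 1508, 1304 and 1062 of 12409 genes in all. The list had a median log2 fold change of 0.15 (-0.01 over all tested genes above 0 in both lines, and -0.24 for the list when 0.5 was required in every library). Urokinase (*Plau*), which turns plasminogen into plasmin, an activator of MMP precursors, fell from 164 ± 6.65 to 38.6 ± 0.614 (log2 fold change -2.08, SE 0.038, adjusted p = 2.38e-09), given here and for the genes that follow as mean normalized coverage ± SD of 3 libraries in the KSFM-Ca2+ and then the DKSFM cells. Its receptor gene *Plaur* fell from 27.3 ± 1.38 to 3.50 ± 0.634 (log2 fold change -2.94, SE 0.12, adjusted p = 1.57e-07). *Serpinb2*, which encodes an inhibitor of urokinase, fell from 596 ± 63.6 to 168 ± 12.5 (log2 fold change -1.82, SE 0.082, adjusted p = 2.38e-07). *Lcn2*, whose product binds the *Mmp9* gelatinase, fell from 83.0 ± 4.14 to 12.7 ± 1.13 (log2 fold change -2.71, SE 0.070, adjusted p = 1.27e-08). *Tspan5*, a tetraspanin that carries ADAM10 to the cell surface, rose from 13.3 ± 0.943 to 37.7 ± 1.29 (log2 fold change 1.495, SE 0.061, adjusted p = 1.35e-07). The other 4 genes called higher had means below 10 in both lines and were picked out after their values were seen: *Tspan15* and *Tspan33*, also partners of ADAM10, *Plat*, the tissue plasminogen activator, and *Fstl3*. *Reck*, the membrane inhibitor of MMPs, was low in both lines with overlapping libraries (0.619 ± 0.140 and 0.554 ± 0.114, adjusted p = 0.634).

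Among 38 substrates, 31 were tested, 7 called higher (22.6%, where 13.2% of all tested genes were) and 11 lower (35.5%, where 10.5% of all were). The higher count was 3 when tested against 2-fold itself, beside 1062 of 12409 genes in all. The median log2 fold change of the 30 genes above 0 in both lines was -0.15. Among the ligands of the epidermal growth factor receptor, *Hbegf* fell from 48.6 ± 4.63 to 8.19 ± 0.835 (log2 fold change -2.55, SE 0.091, adjusted p = 6.74e-08), *Areg* from 16.0 ± 1.98 to 1.73 ± 0.221 (log2 fold change -3.14, SE 0.13, adjusted p = 1.35e-07) and *Ereg* from 14.1 ± 1.002 to 1.14 ± 0.173 (log2 fold change -3.52, SE 0.12, adjusted p = 6.41e-08), the last with a log2 fold change of -2.82 at a pseudocount of 1. *Epgn*, another of these ligands, was higher by less than 2-fold (10.1 ± 1.77 and 19.8 ± 0.943, log2 fold change 0.98, SE 0.12, adjusted p = 8.36e-05), and *Tgfa* slightly lower (log2 fold change -0.17, adjusted p = 0.0082), both added after their values were seen. *Nrg1*, a ligand of the related receptors, fell from 142 ± 6.81 to 53.2 ± 1.26 (log2 fold change -1.41, SE 0.042, adjusted p = 2.62e-08). *Tnf*, the name-giving substrate of ADAM17, had a mean of 12.99 ± 2.04 in the KSFM-Ca2+ libraries and was listed at 0 in all DKSFM libraries (adjusted p = 9.95e-09). Of the membrane proteins known to be cleaved by ADAM10, some were lower and some higher. The hyaluronan receptor gene *Cd44* and the chemokine gene *Cxcl16* fell, *Cd44* from 1200 ± 52.8 to 432 ± 19.9 (log2 fold change -1.47, SE 0.044, adjusted p = 2.58e-08) and *Cxcl16* from 989 ± 41.9 to 311 ± 6.35 (log2 fold change -1.67, SE 0.036, adjusted p = 5.21e-09). *L1cam*, *Notch1* and *App*, added after their values were seen, were higher by less than 2-fold (log2 fold changes 0.80, 0.53 and 0.25, adjusted p = 2.19e-05, 5.04e-05 and 2.51e-05).

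The laminin chain genes *Lama3* and *Lamb3* fell, *Lama3* from 362 ± 4.89 to 115 ± 4.05 (log2 fold change -1.66, SE 0.033, adjusted p = 3.61e-09) and *Lamb3* from 605 ± 15.2 to 297 ± 9.68 (log2 fold change -1.03, SE 0.033, adjusted p = 4.17e-08), the latter under 2-fold when DKSFM replicate 2 was left out (log2 fold change -0.995), with quantile normalization (-0.97), and not past a test against 2-fold. The basement membrane collagen genes *Col4a1* and *Col4a2* rose, *Col4a1* from 85.5 ± 3.07 to 266 ± 14.3 (log2 fold change 1.63, SE 0.046, adjusted p = 1.99e-08) and *Col4a2* from 54.2 ± 1.98 to 114 ± 5.003 (log2 fold change 1.07, SE 0.044, adjusted p = 1.37e-07). Other basement membrane genes, added after their values were seen, changed by less than 2-fold, with log2 fold changes of 0.37 for *Col17a1*, 0.44 for *Col7a1* and -0.76 for *Hspg2* (adjusted p = 2.64e-05, 0.00193 and 3.26e-05). *Fn1*, which encodes fibronectin, rose from 7.55 ± 0.529 to 32.8 ± 2.33 (log2 fold change 2.11, SE 0.074, adjusted p = 6.32e-08). Of the receptors in the list, *Il6ra* rose from 10.8 ± 0.521 to 31.2 ± 1.32 (log2 fold change 1.52, SE 0.057, adjusted p = 8.89e-08), *Notch2* from 8.07 ± 0.289 to 17.8 ± 0.161 (log2 fold change 1.13, SE 0.055, adjusted p = 3.68e-07) and *Tnfrsf1a* from 86.0 ± 2.73 to 178 ± 5.76 (log2 fold change 1.04, SE 0.037, adjusted p = 6.68e-08), while *Tnfrsf1b*, not tested and added after its values were seen, was listed at 0.4 in each KSFM-Ca2+ library and at 0, 0.2 and 0.1 in DKSFM replicates 1 to 3. Tested against 2-fold itself, *Col4a2*, *Notch2* and *Tnfrsf1a* were not called (adjusted p = 0.321, 0.12 and 0.62). Outside the naming rule, *Cx3cl1* was called higher and *Btc* lower, each with a mean below 10, and they were picked out after their values were seen.

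The last list held 17 transcription factors known to act on *Mmp* promoters. All were tested, 2 were called higher (11.8%, near the 13.2% of all tested genes) and 3 lower (17.6%, where 10.5% of all were), and their median log2 fold change was 0.33. The AP-1 genes moved in both directions. *Jun* rose from 18.2 ± 0.832 to 74.9 ± 3.78 (log2 fold change 2.04, SE 0.053, adjusted p = 1.37e-08) and *Fosl2* from 27.8 ± 0.822 to 100.3 ± 1.16 (log2 fold change 1.85, SE 0.036, adjusted p = 3.30e-09), and *Fosl1* fell from 17.04 ± 2.33 to 3.20 ± 0.746 (log2 fold change -2.39, SE 0.16, adjusted p = 2.76e-06). The factors *Etv4* and *Etv5*, of the ETS family, fell furthest, *Etv4* from 194 ± 11.6 to 14.1 ± 2.15 (log2 fold change -3.78, SE 0.10, adjusted p = 1.46e-08) and *Etv5* from 14.2 ± 0.158 to 0.762 ± 0.215 (log2 fold change -4.08, SE 0.18, adjusted p = 2.08e-07), the latter with -3.11 at a pseudocount of 1. The other AP-1 genes changed by less than 2-fold or did not pass, with log2 fold changes of 0.94 for *Fos*, 0.61 for *Fosb*, 0.79 for *Jund* and -0.81 for *Junb* (adjusted p = 4.92e-07, 0.029, 1.25e-05 and 2.06e-07). Whether any of these factors act on the metalloproteinase genes in these cells was not tested.

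**Figure D5:**
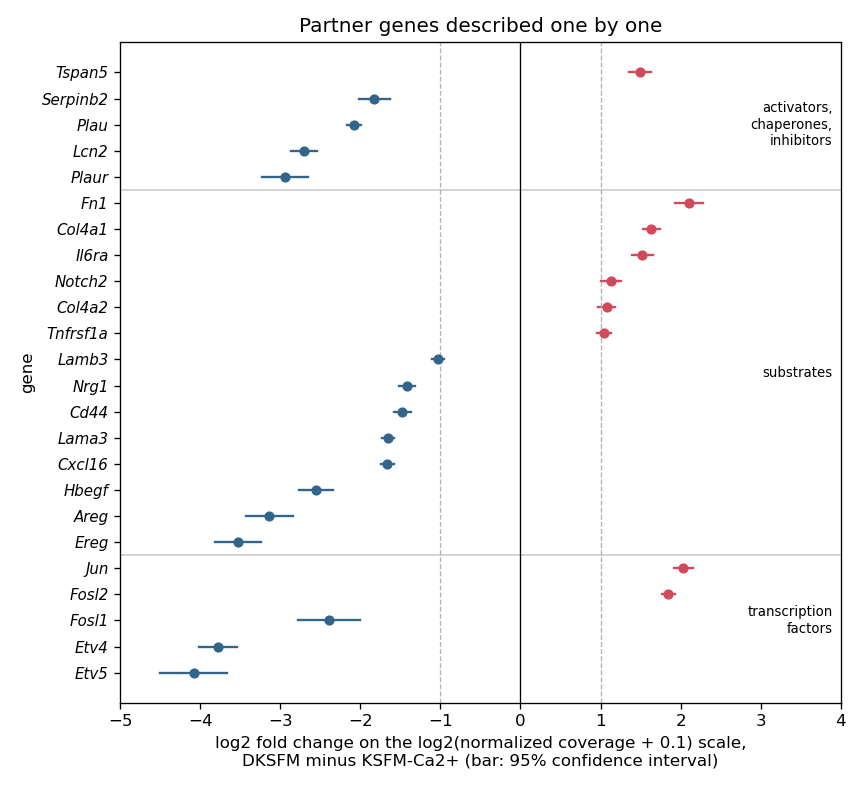
Log2 fold change, DKSFM minus KSFM-Ca2+, of called partner genes described one by one, with 95% confidence intervals from the limma fit, grouped by list. Red marks genes called higher and blue genes called lower, Tnf is left out because it was listed at 0 in the DKSFM libraries, and values run from -4.08 for Etv5 to 2.11 for Fn1.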

How the data were processed

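The authors aligned reads to mm10 with STAR after bcl2fastq and tested differences with DESeq2. The deposited values are mean coverage per base for each gene, a signal with 1 decimal, and not counts, so limma was used in place of a count model. Members were found by symbol, and members and lists were chosen with earlier results of these data known. Libraries were scaled by trimmed means of M values without weights. Genes that reached 0.5 in 3 or more libraries after scaling were tested with limma (intensity trend) on log2(normalized coverage + 0.1), two-sided, with Benjamini-Hochberg adjustment over 12409 genes. Calls needed an adjusted p below 0.01 and a 2-fold change. Values in every library were given for *Adam15*, *Adamtsl4*, every *Timp* gene above 0, all called members and the 2 most abundant members of each other family. *Mmp13*, *Mmp3*, *Mmp28*, *Adam9*, *Adam10* and *Adamts10* were added after their values were seen. The called genes named from partner lists, not all of them, reached a mean of 10 in either line unless marked as chosen after their values were seen. Gene positions came from GENCODE M21 and promoters from RefSeq. The fit ran in R 4.3.3 (limma 3.58.1) and the figures were drawn with matplotlib 3.10.9 under Python 3.11.15.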

Additional observations from a re-analysis of the deposited data

How the results depend on the processing

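Leaving out each library in turn gave 14 members called higher and 5 lower in all 6 cases, and between 1610 and 1704 genes higher and between 1295 and 1328 lower among all tested genes. With a normalized coverage of 0.5 required in every library, 8 members were higher and 3 lower, and 1032 and 955 of 11112 genes in all. Genes below 0.5 in any library then leave the test, among them the called members *Mmp12*, *Mmp1b*, *Mmp24*, *Mmp27*, *Adamts2*, *Adamts15*, *Adamts16* and *Timp3*. Without a filter 20 members were higher and 8 lower, and 1971 and 1484 of 16081 genes in all, as more genes were tested. Tested against 2-fold itself, 11 members were higher and 4 lower, and 1062 and 785 genes in all, a stricter rule by construction. The log2 fold change of *Mmp19* was -0.27 with quantile normalization and between -0.13 and 0.32 when 1 library was left out. That of *Mmp3* was -0.041 with quantile normalization, -0.023 with the libraries marked as combined only (1 KSFM-Ca2+ library, assumed to vary as the DKSFM libraries do), and between -0.023 and 0.16 when 1 library was left out. The median of the activators, chaperones and inhibitors was -0.24 with 0.5 required in every library. The cause of the changes in *Mmp19* and *Mmp3* was not tested. With a replicate block 14 members were higher and 5 lower, and 1641 and 1304 genes in all. Residuals of libraries with the same replicate number had correlations of -0.01, 0.02 and -0.01, so no effect shared by libraries of the same number was seen. These values cannot show whether such libraries were cultured or prepared together.

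Coverage has 1 decimal, so genes near 0.1 are measured in few steps, and their fold changes depend on the pseudocount. Read counts behind each value are not given, so no counting intervals are given.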
